A study of Mus musculus with 9 samples.

Results

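The core circadian clock genes were described here in RNA from area CA1 of the mouse hippocampus. The set was given as a list of 10 symbols, namely Per1, Per2, Per3, Cry1, Cry2, Arntl, Clock, Dbp, Nr1d1 and Ciart. Each symbol matched 1 row among the 24489 rows of the authors' expression table, and all 10 reached the minimum mean of 1 FPKM (a fragment count corrected for transcript length and library depth) and were tested. The 9 libraries came from C57BL/J6 mice aged 9 to 12 weeks, in 3 groups of 3 biological replicates. The control group had been infected with an adeno-associated virus (AAV, a viral vector for gene delivery) encoding a scrambled short hairpin RNA (shRNA), and the sources used here do not say whether it was trained. The naive group and the trained group both carried an AAV encoding an shRNA against H2A.Z, a variant of histone H2A. The naive mice are labelled only as such, and the trained mice had been through contextual fear conditioning, in which a chamber is paired with a foot shock. The sources used here do not give the promoter of the viral vector, the share of cells it reached, the time from training to dissection or the hour of dissection.

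The circadian clock of mammalian cells is a delayed feedback loop of transcription. BMAL1, the product of Arntl, pairs with CLOCK and activates genes through E-boxes, among them the Per and Cry genes, whose proteins return to the nucleus and repress the pair. A side loop runs through Nr1d1, whose product REV-ERB alpha represses Arntl, and Dbp is an output gene whose product activates genes through D-boxes. In the hippocampus the loop runs under the influence of the pacemaker of the suprachiasmatic nucleus, and Per1 is also known as a gene induced quickly by neuronal activity and by glucocorticoids. Transcripts of the Per genes, Nr1d1 and Dbp peak in a phase different from that of Arntl, so that the level of a clock gene also depends on the hour at which the tissue is taken.

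Depth was read from the steps between low FPKM values, which put 1 FPKM at 18.3 to 26.4 fragments per kilobase. On that scale, and with the length of the longest annotated transcript of each gene, the clock genes had between 143.6 (Ciart) and 2923 (Clock) fragments in a library. For these, counting error alone gives a relative error of up to 8.35% (Ciart). Where shorter transcripts are in use, the fragments are fewer and the error is larger. H2afz, the mRNA targeted by the hairpin, stood at 26.1 to 28.7 FPKM in the control libraries, 25.1 to 28.0 in the naive and 23.9 to 28.5 in the trained ones, so that a drop of the target was not seen and the groups are named here as labelled (limma adjusted p = 0.844 for both H2A.Z shRNA groups against control). H2afv, which encodes the other H2A.Z protein, stood at 14.3 to 16.2, 15.4 to 15.9 and 13.0 to 15.0 FPKM in the same order. The 7 markers of CA1 pyramidal neurons were present in every library, with a summed level of 243 to 342 FPKM in control, 210 to 248 in naive and 241 to 304 in trained libraries. The estimates of all 7 were below 0 in naive and in trained against control libraries, with medians of -0.32 and -0.090 (log2). In naive against control 5 of them had a limma unadjusted p under 0.05 with lower values (71.4%, beside 5.69% of all genes). The 14 markers of dentate gyrus granule neurons, which lie next to CA1 and are another source of RNA in such a dissection, were present in every library too. Their summed level was 129 to 253 FPKM in control, 238 to 310.1 in naive and 176 to 291 in trained libraries, and the estimates of all 14 were above 0 both in naive and in trained against control libraries. The same held for all 13 microglia markers, whose summed level was 243 to 299 FPKM in control, 310.4 to 595 in naive and 302 to 451 in trained libraries. In naive against control 10 dentate gyrus markers (71.4%) and 9 microglia markers (69.2%) had a limma unadjusted p under 0.05 with higher values. Of all genes 9.81% did. So did 3 of 7 astrocyte markers (42.9%) and 1 of 5 endothelial markers (20%). With lower values there were 2 of 6 interneuron markers (33.3%) and 3 of 4 choroid plexus markers tested (75%), beside 5.69% of all genes. Of the 5 general neuron and the 7 oligodendrocyte markers, 0 were under that p in either direction. The marker lists were chosen with earlier results of these data known, so these shares are a description only. Ttr, a marker of the choroid plexus, stood at 33.2, 132 and 764 FPKM in control replicates 1, 2 and 3, at 5.77 to 23.4 in naive and at 38.4 to 96.4 in trained libraries. In bulk RNA, fewer cells of a type and less RNA per cell cannot be told apart.

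In 4 comparisons no clock gene passed (limma on log2(FPKM + 1), Benjamini-Hochberg adjusted p under 0.05 over 12327 genes). Per1 and Ciart were higher in every trained library than in every control and every naive library, and Per2 was higher in every trained than in every naive library. Of all genes, 6.40% were higher without overlap against control and 5.79% against naive. The share of all genes above both groups at once was not computed. Arntl, Clock, Cry2 and Nr1d1 lay within narrow ranges across all 9 libraries. Dbp had the widest spread among the control libraries. Dbp and Per3 both tracked the level of the dentate gyrus markers, a comparison added after the values were seen. Its permutations ignored the groups, and the share of all genes that track these markers was not computed.

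Across all libraries, levels per length ran from Nr1d1 at 33.8 ± 1.59 FPKM (SD, n = 9) through Cry2 at 27.2 ± 1.11, Dbp at 27.04 ± 5.49, Per1 at 15.7 ± 3.01, Arntl at 11.9 ± 0.536, Clock at 11.6 ± 0.431, Per2 at 8.30 ± 1.10, Per3 at 5.98 ± 0.884 and Cry1 at 4.88 ± 0.603 to Ciart at 4.25 ± 0.749. Nr1d1 was above Cry2, Dbp above Per1, and Clock above Per2, with ranges that did not overlap. The ranges of Cry2 and Dbp overlapped, and Cry2 was the higher of the pair in 6 of 9 libraries. Per1 was above Arntl in 8 of 9 libraries and Arntl above Clock in 7 of 9. Per2 exceeded Per3, and Per3 exceeded Cry1, in 9 of 9 libraries, although the ranges of these neighbours overlapped. Cry1 was above Ciart in 7 of 9.

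**Figure D1:**
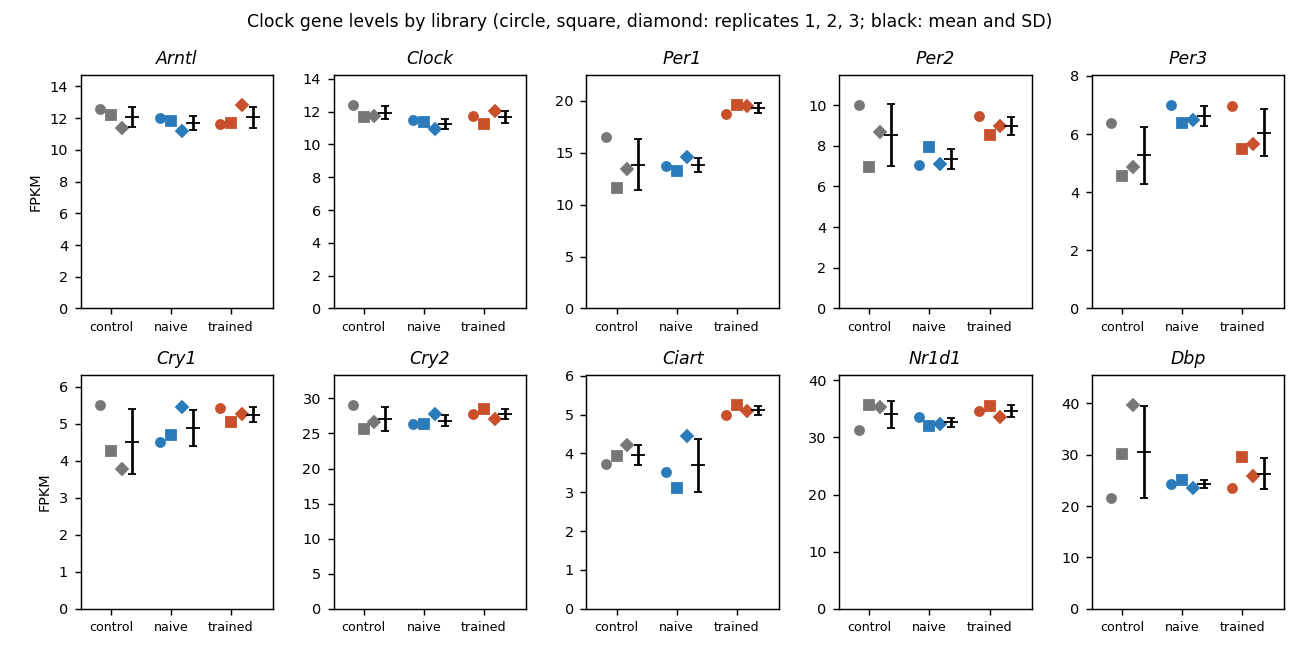
FPKM of the 10 clock genes (vertical axes, each from 0) by group; circles, squares and diamonds are replicates 1, 2 and 3 and black bars are the mean and SD of 3 libraries. The 3 trained libraries lie above all others for Per1 (18.7 to 19.6 FPKM) and Ciart (4.99 to 5.24), while the control libraries of Dbp spread from 21.7 to 39.6.

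The activating limb varied little. Arntl (chromosome 7, 113207465 to 113314126, plus strand, GRCm38) stood at 12.6, 12.2 and 11.4 FPKM in control replicates 1, 2 and 3, at 12.04, 11.8 and 11.2 in the naive ones and at 11.6, 11.7 and 12.8 in the trained ones. The groups overlapped in each comparison, and the 95% confidence interval of trained against control was 0.914 to 1.09 times on the scale of FPKM + 1 (log2 fold change -0.0020, SE 0.056, limma adjusted p = 0.993). Its partner Clock (chromosome 5, 76209868 to 76304792, minus strand) stood at 12.4, 11.7 and 11.7 in control, 11.5, 11.4 and 10.9 in naive and 11.8, 11.3 and 12.03 in trained libraries. Each naive library was below each control library, by a small margin (limma log2 fold change -0.075, SE 0.045, adjusted p = 0.451). The ratio of Clock to Arntl, both FPKM, stayed between 0.938 and 1.03 in the 9 libraries.

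Per1 (chromosome 11, 69095217 to 69109960, plus strand) encodes a PERIOD protein, which represses CLOCK and BMAL1. It stood at 16.5, 11.7 and 13.4 FPKM in control, 13.8, 13.3 and 14.6 in naive and 18.7, 19.6 and 19.5 in trained libraries. The lowest trained library was thus above the highest of the other 6. Against control the log2 fold change was 0.46 (SE 0.10, 95% confidence interval 0.23 to 0.70, limma unadjusted p = 0.00162, adjusted p = 0.504), and against naive it was 0.45 (SE 0.10, interval 0.22 to 0.68, limma unadjusted p = 0.00193, adjusted p = 0.556). These comparisons share the trained libraries, as those against control share the control ones. Control replicate 1 was the highest control library, and without it Per1 passed the threshold against control (log2 fold change 0.59, limma adjusted p = 0.0322). Its limma adjusted p reached 0.968 under another alternative, and the highest for Ciart in this comparison was also 0.968. In naive against control libraries Per1 had a log2 fold change of 0.013 (SE 0.10, limma adjusted p = 0.965).

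Ciart (chromosome 3, 95878503 to 95882251, minus strand), also called Chrono, encodes a further repressor of the pair. It stood at 3.72, 3.94 and 4.23 FPKM in control, 3.52, 3.11 and 4.44 in naive and 4.99, 5.24 and 5.10 in trained libraries. All 3 trained libraries were above all 6 others. The log2 fold change was 0.30 against control (SE 0.10, 95% confidence interval 0.080 to 0.52, limma unadjusted p = 0.0133, adjusted p = 0.637) and 0.39 against naive (SE 0.10, interval 0.17 to 0.61, limma unadjusted p = 0.00317, adjusted p = 0.556). With 3 libraries in a group and no clock gene past the threshold, these differences are not called. For the dentate gyrus markers the median log2 fold change was 0.35 in trained against control and -0.30 in trained against naive libraries. With their level per library as a covariate the trained against naive difference was 0.53 for Per1 and 0.37 for Ciart. For both H2A.Z shRNA groups against control, the covariate lowered the Per1 value from 0.24 to 0.11. In trained against control the alternatives, this covariate among them, gave 0.35 to 0.59 for Per1 and 0.27 to 0.36 for Ciart. The part of dissection in these differences was not tested.

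Per2 (chromosome 1, 91415982 to 91459324, minus strand), a PERIOD gene that is central to the loop, stood at 10.01, 6.96 and 8.69 FPKM in control, 7.08, 7.92 and 7.10 in naive and 9.45, 8.53 and 8.96 in trained libraries. The trained and naive libraries did not overlap, whereas the controls spanned both. The log2 fold change of trained against naive was 0.26 (SE 0.11, limma unadjusted p = 0.0421, adjusted p = 0.591), that of trained against control 0.075 (SE 0.11, adjusted p = 0.841) and that of naive against control -0.18 (SE 0.11, adjusted p = 0.447). Without control replicate 1 the naive against control value was -0.072, and without control replicate 2 it was -0.31. The ratio of Per1 to Per2, both FPKM, was 1.54 to 1.67 in control, 1.67 to 2.05 in naive and 1.98 to 2.30 in trained libraries. The naive range of that ratio overlapped both of the others.

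Per3 (chromosome 4, 151003652 to 151044665, minus strand), a PERIOD gene that is dispensable for the core rhythm in mice, differed from Per1 and Per2 in its group means, which were lowest in control and highest in naive libraries. It stood at 6.39, 4.54 and 4.86 FPKM in control, 6.998, 6.38 and 6.49 in naive and 6.98, 5.49 and 5.66 in trained libraries. Control replicates 2 and 3 were the lowest of all, and control replicate 1 lay inside the naive range. As for Per1 and Per2, replicate 1 was the highest and replicate 2 the lowest control library. Deviations from the group means had r = 0.65 between Per3 and Per1 and 0.73 between Per3 and Per2 over the 9 libraries, given as a description. Naive against control libraries gave a log2 fold change of 0.29 (SE 0.12, limma unadjusted p = 0.0337, adjusted p = 0.301), which was 0.0021 with the dentate gyrus markers as a covariate. Trained against control it was 0.17 (SE 0.12, adjusted p = 0.694) and with the covariate 0.026.

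Per3 ran opposite to Dbp, which encodes a D-box factor, though this relation did not pass after adjustment and a regulatory link was not tested. Both also followed the dentate gyrus markers, in opposite directions (r = 0.96 for Per3 and -0.90 for Dbp). Per1 and Ciart were higher together in the trained libraries, but r was 0.085 between their deviations from the group means. With no link to these relations tested, promoters of Per1, Ciart and Per3 are shown as a description. They are the 250 bases before each annotated RefSeq start in build GRCm38.p6, with matches to 3 short motifs in capitals: the E-box CACGTG, the D-box TTATGTAA or TTACGTAA, and TGACG, the core of the cyclic AMP response element (CRE) bound by CREB. Both strands were searched. The RefSeq table held 13 promoter windows for the clock genes other than Per2.
Per1, chr11:69098699-69098948, plus strand: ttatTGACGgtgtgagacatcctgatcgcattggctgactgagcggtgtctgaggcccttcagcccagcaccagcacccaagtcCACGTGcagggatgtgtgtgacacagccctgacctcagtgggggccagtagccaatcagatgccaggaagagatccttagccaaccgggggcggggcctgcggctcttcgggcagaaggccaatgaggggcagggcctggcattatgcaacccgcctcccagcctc
Per1, chr11:69099902-69100151, plus strand: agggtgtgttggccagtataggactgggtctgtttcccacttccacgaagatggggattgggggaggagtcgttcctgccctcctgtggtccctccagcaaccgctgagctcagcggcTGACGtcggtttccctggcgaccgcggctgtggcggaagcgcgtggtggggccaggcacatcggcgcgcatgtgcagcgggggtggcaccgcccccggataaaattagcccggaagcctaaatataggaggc
Ciart, chr3:95882229-95882478, minus strand: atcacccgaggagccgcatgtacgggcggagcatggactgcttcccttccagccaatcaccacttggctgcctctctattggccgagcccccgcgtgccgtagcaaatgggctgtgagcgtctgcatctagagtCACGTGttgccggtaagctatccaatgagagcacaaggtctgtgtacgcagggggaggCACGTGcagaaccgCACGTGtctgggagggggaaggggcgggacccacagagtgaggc
Per3, chr4:151044666-151044915, minus strand: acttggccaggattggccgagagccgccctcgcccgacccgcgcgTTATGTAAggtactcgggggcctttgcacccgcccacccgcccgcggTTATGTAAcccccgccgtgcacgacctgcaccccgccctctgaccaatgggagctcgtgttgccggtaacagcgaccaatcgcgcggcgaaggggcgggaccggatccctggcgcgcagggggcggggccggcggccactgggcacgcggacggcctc

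The first Per1 window held 1 E-box and 1 CRE core, and the second held 1 CRE core. Ciart held 3 E-boxes and Per3 held 2 D-boxes. In windows of 300 bases, which add 50 bases after the start, 7.15% of 32851 mouse promoters held an E-box, 1.06% a D-box and 20.8% a CRE core. Among the 13 windows of the clock genes, 3 held an E-box, 1 a D-box and 4 a CRE core, the others being an E-box and a CRE core in Cry1 and a CRE core in Cry2. AGGTCA, the core bound by REV-ERB and ROR receptors, was searched too and left in lower case, and stood in 3 of the 13 windows (Per1, Arntl and Clock) and 16.3% of all. The complete CRE TGACGTCA, which contains the core, and the palindromic glucocorticoid response element were in 0 of the 13 windows, against 1.79% and 0.00913% of all. These matches describe letters in short windows only.

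The cryptochromes, which bind the PERIOD proteins and repress the activating pair directly, differed from each other in level more than between groups. Cry1 (chromosome 10, 85131700 to 85185064, minus strand) stood at 5.49, 4.26 and 3.79 FPKM in control, 4.51, 4.70 and 5.43 in naive and 5.42, 5.04 and 5.27 in trained libraries. The groups overlapped, with control replicate 1 the highest of the 9 and control replicate 3 the lowest (trained against control log2 fold change 0.19, SE 0.11, limma adjusted p = 0.688). Without control replicate 1 this value was 0.31 and without control replicate 3 it was 0.095. Cry2 (chromosome 2, 92403646 to 92434043, minus strand) stood at 29.01, 25.6 and 26.6 in control, 26.3, 26.4 and 27.7 in naive and 27.7, 28.5 and 27.04 in trained libraries. The groups overlapped, and the 95% confidence interval of trained against control was 0.944 to 1.11 times (log2 fold change 0.036, SE 0.052, limma adjusted p = 0.844). Of its exonic bases 295 are shared with D930015M05Rik on the other strand. Cry2 was 5.10 to 7.03 times the level of Cry1 in FPKM across the 9 libraries.

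Nr1d1 (chromosome 11, 98767932 to 98775333, minus strand), the most abundant member, stood at 31.4, 35.6 and 35.2 FPKM in control, 33.5, 32.07 and 32.4 in naive and 34.6, 35.6 and 33.5 in trained libraries. The groups overlapped in all comparisons. The interval of trained against control was 0.931 to 1.11 times (log2 fold change 0.021, SE 0.055, limma adjusted p = 0.917) and that of naive against control 0.882 to 1.05 times (log2 fold change -0.057, SE 0.055, adjusted p = 0.647). Of its exonic bases 263 are shared with Thra on the other strand, and the sources used here do not say whether the authors' counting used strand.

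Dbp (chromosome 7, 45705088 to 45710203, plus strand), which encodes a transcription factor with a strong daily rhythm, varied most. It stood at 21.7, 30.2 and 39.6 FPKM in control, 24.3, 25.1 and 23.5 in naive and 23.5, 29.6 and 25.8 in trained libraries. The control libraries alone held both the lowest and the highest of the 9 values, a spread of 1.83 times, against 1.07 times among naive libraries. The log2 fold change of naive against control was -0.27 (SE 0.18, 95% confidence interval -0.68 to 0.14, limma adjusted p = 0.490), and it was -0.49 without control replicate 1 and -0.070 without control replicate 3. Trained against control was -0.17 (SE 0.18, adjusted p = 0.793), and this turned to 0.035 without control replicate 3. With the dentate gyrus markers as a covariate the naive against control value turned to 0.19 and the trained against control value to 0.066. Control replicate 3, the highest for Dbp, was also the highest library for Ttr, and the part of choroid plexus RNA in its value was not tested. Of its exonic bases 539 are shared with Sphk2 on the other strand.

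**Figure D2:**
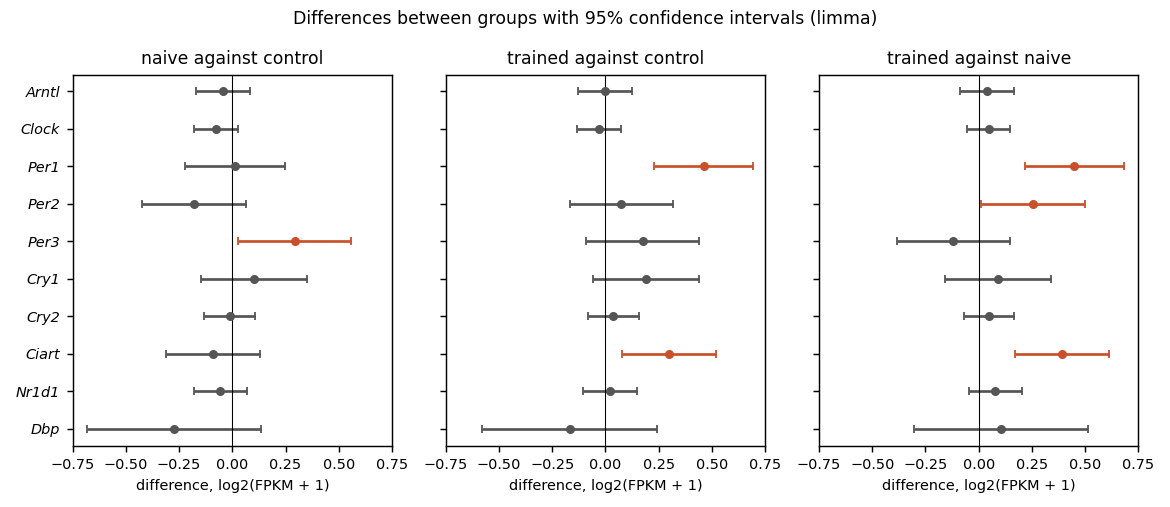
Difference of log2(FPKM + 1) between groups for each clock gene (points) with 95% confidence intervals (bars) from limma; orange marks an unadjusted p under 0.05, and none passed after adjustment. Per1 and Ciart lie right of 0 in both comparisons of the trained group, at 0.46 and 0.30 against control and 0.45 and 0.39 against naive, while the intervals of Dbp are the widest.

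Read against all genes, these counts were as follows. In naive against control libraries 0 of 10 clock genes and 0.00% of all genes passed after adjustment. Of the 10, 1 (Per3) had an unadjusted p under 0.05, where 15.5% of all genes did, 0 were higher without overlap (11.2% of all genes) and 1 (Clock) was lower without overlap (8.23%). In trained against control libraries 0 of 10 passed, where 0.00811% of all genes did, which is 1 gene, Sgk1. Per1 and Ciart, 2 of 10, had an unadjusted p under 0.05 (7.71% of all genes), the same 2 were higher without overlap (6.40%) and 0 were lower without overlap (6.08%). In trained against naive libraries 0 of 10 passed, again with 0.00811% of all genes. Per1, Ciart and Per2, 3 of 10, had an unadjusted p under 0.05 (8.27%) and were higher without overlap (5.79%), and 0 were lower without overlap (9.16%). With both H2A.Z shRNA groups set against control, 0 of 10 passed (0.00% of all genes). Per1 and Per3, 2 of 10, had an unadjusted p under 0.05 (12.4%). The median log2 fold change of the 10 was -0.050, 0.056, 0.084 and -0.0030 in these comparisons in turn, beside 0.016, -0.0070, -0.020 and 0.0057 over all genes tested.

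The other genes of the clock were taken from a list of 27, of which 24 were tested, and 0 of them passed in any comparison in either direction. In naive against control libraries 4 had an unadjusted p under 0.05 with higher values, which is 16.7% beside 9.81% of all genes, and 2 with lower ones, 8.33% beside 5.69%. Nr1d2, the paralog of Nr1d1, had the smallest p, at 25.4 ± 1.26 FPKM (SD, n = 3) in control, 21.5 ± 0.258 in naive and 24.2 ± 1.55 in trained libraries (naive against control log2 fold change -0.23, SE 0.056, limma adjusted p = 0.239). Every naive library was below every control and every trained library. Nono, whose product binds PERIOD proteins, stood at 39.8 ± 0.138, 44.5 ± 1.94 and 42.3 ± 1.47 FPKM. Nampt, a clock-driven enzyme of NAD synthesis, stood at 16.07 ± 0.376, 19.4 ± 2.16 and 16.4 ± 0.818, and Fbxw11, a ubiquitin ligase subunit that targets PERIOD proteins, at 41.3 ± 2.30, 45.7 ± 1.93 and 44.0 ± 1.87. These 3 were higher in every naive than in every control library. Of the 24, 4 were higher and 5 lower without overlap in this comparison, beside 11.2% and 8.23% of all genes.

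In trained against control libraries 1 of the 24 had an unadjusted p under 0.05 with a higher value, Sik1, and 1 with a lower one, Npas2, which is 4.17% each beside 3.92% and 3.80% of all genes. Sik1 encodes a kinase induced by CREB that limits shifts of the clock, and stood at 2.28 ± 0.269 FPKM in control, 2.43 ± 0.0806 in naive and 3.31 ± 0.520 in trained libraries, with each trained library above the other 6 (trained against control log2 fold change 0.39, SE 0.097, limma adjusted p = 0.504). Npas2, a paralog of Clock in the forebrain, stood at 5.28 ± 0.0965, 4.80 ± 0.223 and 4.71 ± 0.246, below control in every H2A.Z shRNA library. Rorb, which encodes a nuclear receptor of the REV-ERB binding sites, stood at 2.85 ± 0.163, 2.91 ± 0.115 and 2.46 ± 0.196. In trained against naive libraries 3 of the 24 had an unadjusted p under 0.05 with higher values (12.5%, beside 2.74% of all genes) and 2 with lower ones (8.33%, beside 5.53%). Bhlhe40, an activity-regulated repressor of the clock also known as DEC1, led these at 61.6 ± 0.961, 55.4 ± 2.16 and 64.7 ± 5.71 (trained against naive log2 fold change 0.22, SE 0.064, limma adjusted p = 0.556). It was higher in every trained than in every naive library. Without overlap, 2 of the 24 were higher and 2 lower in trained against control, beside 6.40% and 6.08% of all genes. In trained against naive 3 were higher and 2 lower, beside 5.79% and 9.16%.

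Per1 belongs also to the genes induced by activity and by glucocorticoids. Of 23 activity-regulated genes tested, 0 passed in trained against control libraries, and 14 had an unadjusted p under 0.05 with higher values (60.9%, beside 3.92% of all genes) and 0 with lower ones (beside 3.80%). Fos, a subunit of AP-1, stood at 4.76 ± 1.31 FPKM in control, 6.21 ± 0.839 in naive and 10.5 ± 2.55 in trained libraries, and Bdnf, a neurotrophin, at 13.9 ± 0.184, 15.8 ± 1.31 and 17.4 ± 1.01. Of 17 glucocorticoid-induced genes tested, 1 passed in trained against control libraries, Sgk1, a kinase, which rose from 15.4 ± 1.20 in control to 26.7 ± 0.346 in trained libraries beside 14.4 ± 1.02 in naive ones (log2 fold change 0.76, SE 0.066, limma adjusted p = 0.0177). Its log2 fold change stayed between 0.71 and 0.81 under 17 alternatives, but 7 of them ended the call, with an adjusted p of 0.0502 without the filter on low values and 0.0977 with the dentate gyrus covariate. The others were the fits without control replicate 2 (0.183), naive replicate 2 (0.0561) and trained replicates 1, 2 and 3 (0.0802, 0.0904 and 0.214), all limma adjusted p. Against naive libraries Sgk1 had a log2 fold change of 0.85 (limma adjusted p = 0.00689), and 1 of 17 alternatives ended that call, the fit without trained replicate 3 (adjusted p = 0.0963). Nfkbia, an inhibitor of NF-kappa B, stood at 10.01 ± 0.437, 11.05 ± 1.52 and 13.7 ± 1.68. Of the 17, 4 had a limma unadjusted p under 0.05 with higher values (23.5%) and 0 with lower ones. The median log2 fold change was 0.39 for the activity list and 0.12 for the glucocorticoid list. In trained against naive libraries these medians were 0.28 and 0.13. There 10 activity genes (43.5%) and 6 glucocorticoid genes (35.3%) were higher at that p, beside 2.74% of all genes. In the other direction, 0 and 1 were lower. Both lists were chosen with earlier results of these data known, so these shares are a description only.

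The genes most like Per1 over the 9 libraries were sought among 8131 genes, those of the 8552 rows averaging 5 FPKM or more that remained without shared names, predicted, clone-based and small RNA genes, and the clock genes. By Pearson's r of log2(FPKM + 1), given as a measure of likeness only, they were Errfi1 (0.968), an inhibitor of EGF receptor signalling, Slc25a25 (0.946), a mitochondrial carrier, Tada2b (0.945), Arc (0.941), an activity-regulated synaptic gene, and Zfp281 (0.934). Errfi1 stood at 13.2 ± 1.76 FPKM in control, 13.4 ± 0.624 in naive and 16.3 ± 0.421 in trained libraries, and Arc at 52.7 ± 31.0, 57.8 ± 9.55 and 108.9 ± 11.7. Control replicate 1, the highest control library for Per1, was also the highest for Arc, at 88.4 FPKM against 32.9 and 36.8. Those most like Dbp were Rragc (0.976), Snx12 (0.969), Cops7a (0.962), Foxp1 (0.961) and Ntrk2 (0.955), the last of which encodes the BDNF receptor. For Arntl the best were Ddx26b (0.902), Focad (0.887), Clip1 (0.856), Herc4 (0.849) and Cep120 (0.845).

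Control replicate 1 lay at an end of the control range for each member, a position that was common over all genes too. Some of these margins were small, as for Ciart (3.72 against 3.94 FPKM in control replicate 2). Control replicate 1 had the highest control value for 7 genes, namely Per1, Per2, Per3, Cry1, Cry2, Arntl and Clock, and the lowest for the other 3, Dbp, Nr1d1 and Ciart. Over all genes tested it was the highest control library for 33.1% and the lowest for 44.6%. In 8 of 10 members the coefficient of variation was largest in the control group, as it was for 47.1% of all genes. For Ciart it was largest among the naive libraries, at 18.5%, and smallest among the trained ones, at 2.39%.

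**Figure D3:**
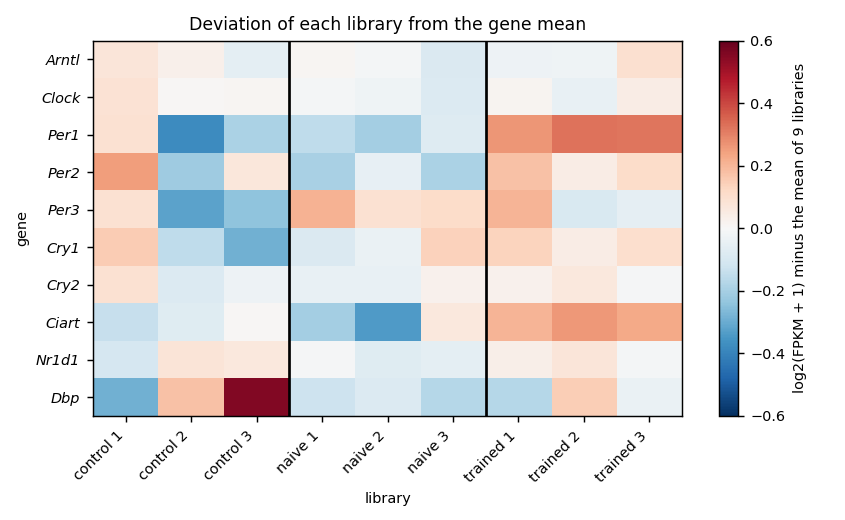
Deviation of log2(FPKM + 1) in each library (columns, by group) from the mean of the 9 libraries for each clock gene (rows). Trained libraries are above the mean for Per1 and Ciart, and control replicate 3 is far above it for Dbp (39.6 FPKM) with Cry1 below it (3.79 FPKM).

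Of the 45 pairs of clock genes, 9 had an unadjusted p under 0.05 over the 9 libraries in a two-sided exact permutation test of Pearson's r, and 0 passed after Benjamini-Hochberg adjustment over the 45. The permutations ignored the groups. The share among pairs of other genes was not computed, so the pairs below are a description and cannot be read as particular to clock genes. The lowest p belonged to Per3 and Dbp, which were opposed (r = -0.81, permutation p = 0.00642, adjusted 0.157; Spearman's rho = -0.82, permutation p = 0.0108, adjusted 0.160), with r = -0.71 once the 2 libraries farthest from the median of Per3 were left out and -0.76 between deviations from the group means. Cry1 and Dbp were opposed too (r = -0.83, permutation p = 0.00698, adjusted 0.157; rho = -0.85, permutation p = 0.00607, adjusted 0.160), and r was -0.90 between deviations from the group means. Without the 2 libraries farthest from the median of Cry1, however, r was only -0.35. Dbp and Nr1d1 ran together (r = 0.73, permutation p = 0.0187, adjusted 0.203; rho = 0.75, permutation p = 0.0255, adjusted 0.164), with r = 0.74 without the 2 farthest and 0.77 between deviations from the group means. Arntl and Clock did so as well (r = 0.77, permutation p = 0.0145, adjusted 0.203; rho = 0.58, permutation p = 0.108, adjusted 0.405), with r = 0.50 without the 2 farthest and 0.79 between deviations from the group means. Per1 and Ciart had r = 0.74 (permutation p = 0.0260, adjusted 0.203; rho = 0.77, permutation p = 0.0214, adjusted 0.160), which was 0.52 without the 2 farthest and 0.085 between their deviations from the group means. Per1 and Cry2, by contrast, had r = 0.73 (permutation p = 0.0316, adjusted 0.203; rho = 0.78, permutation p = 0.0172, adjusted 0.160), which was 0.82 without the 2 farthest and 0.91 between deviations from the group means.

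Per3 and Dbp tracked the dentate gyrus markers, a comparison added after the values were seen. The mean log2(FPKM + 1) of these 14 markers was 3.78, 3.10 and 2.93 in control, 4.02, 3.73 and 3.97 in naive and 3.94, 3.33 and 3.52 in trained libraries. The marker level ordered the control and the trained libraries as Dbp did in reverse, but not the naive ones, where replicate 1 had the highest marker level and replicate 3 the lowest Dbp. It ordered the naive and the trained libraries as Per3 did, but not control replicates 2 and 3. Over the 9 libraries Per3 had r = 0.96 with the markers (exact permutation p = 0.000193, adjusted over the 10 clock genes 0.00193; rho = 0.97, permutation p = 0.000165, adjusted 0.00165), r = 0.95 without the 2 libraries farthest from the median marker level, and r = 0.93 between deviations from the group means. Dbp had r = -0.90 (exact permutation p = 0.000664, adjusted 0.00332; rho = -0.85, permutation p = 0.00607, adjusted 0.0304), r = -0.77 without the 2 farthest, and r = -0.91 between deviations from the group means. The next were Cry1 (r = 0.68, exact permutation p = 0.0427, adjusted 0.138; rho = 0.55, permutation p = 0.133, adjusted 0.332) and Nr1d1 (r = -0.67, exact permutation p = 0.0554, adjusted 0.138; rho = -0.55, permutation p = 0.133, adjusted 0.332), and without the 2 farthest libraries r was -0.046 for Cry1 and -0.41 for Nr1d1. Per1 (r = 0.23, exact permutation p = 0.543, adjusted 0.905; rho = 0.17, permutation p = 0.678, adjusted 0.885) and Ciart (r = -0.18, exact permutation p = 0.633, adjusted 0.905; rho = -0.25, permutation p = 0.521, adjusted 0.885) did not pass. The same relation was not computed over all genes, so the share of other genes that track these markers is not known. The permutations also ignored the groups, which differed in marker level. The part of dissection in these relations was not tested.

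**Figure D4:**
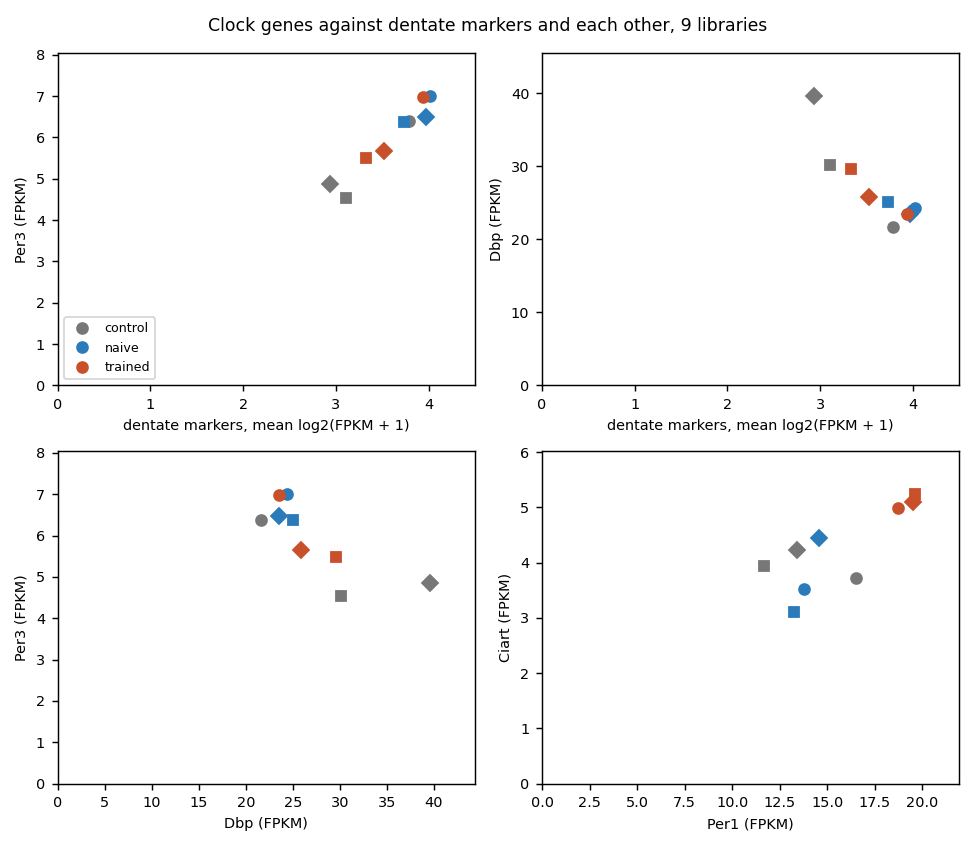
Each point is 1 of 9 libraries, coloured by group, with circles, squares and diamonds for replicates 1, 2 and 3 and axes from 0. Per3 rises and Dbp falls with the mean log2(FPKM + 1) of 14 dentate gyrus markers (r = 0.96 and -0.90), Per3 is low where Dbp is high, and the 3 trained libraries stand apart in the plot of Ciart against Per1.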

How the data were processed

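Polyadenylated RNA from area CA1 was measured in 9 libraries, made with a directional kit from 1 µg of RNA and sequenced as 50 bp paired-end reads, per the labels. Per the submitters' processing notes, the authors used FastQC, TopHat 1.4.0, Cufflinks and Cuffdiff with the mouse genome mm10 and deposited FPKM values, 1 column per library, without counts; the sources used here do not give the gene annotation. Of 24489 rows, 27 with names turned into dates and 5649 at 0 in every library were left out. The 12327 rows with a mean of at least 1 FPKM were tested, 95 of which share a name with another row.

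Values were transformed to log2(FPKM + 1) (this understates the change of low genes) and fitted with limma 3.58.1 in R 4.3.3 as 3 groups with a variance trend (6 residual and 2.72 prior degrees of freedom), two-sided, with Benjamini-Hochberg adjustment over all genes at 0.05. On simulated data for trained against control with 12327 genes, 77.0%, 94.0% and 98.2% of changes of 1.5-, 2- and 4-fold were recovered, with 4.14% of calls false. The noise was drawn separately for each gene, and many more changes were planted than were called in the data. These shares therefore do not give the recovery in the data. There Arc and Fos, with log2 fold changes of 1.17 and 0.99 in trained against control, did not pass (limma adjusted p = 0.557 and 0.504). Correlations used exact permutations in Python 3.11.15 with numpy 2.4.6. Depth was estimated from the steps between low FPKM values, and relative depth lay between 0.872 and 1.26 of control replicate 2. Coordinates are from GENCODE M21 (GRCm38, the assembly of mm10), which held 95.4% of the symbols tested.

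The clock genes, gene lists and markers were chosen with earlier results of these data known. All 10 clock genes are named in every comparison. Of the other clock genes up to 4, and of the activity and glucocorticoid lists up to 2, with the smallest unadjusted p are named, and for Per1, Dbp and Arntl the 5 genes of highest r. Ttr, and Arc in single libraries, were added after values were seen. Alternatives were a pseudocount of 0.1, median-of-ratios scaling, quantile normalization, a filter of 5 FPKM or none, limma's array quality weights, fits of only the groups compared, the dentate gyrus markers as a covariate, and leaving out each library. Replicates are separate biological samples per the labels.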

Additional observations from a re-analysis of the deposited data

How the results depend on the processing

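No paired analysis was possible because the labels give no replicate numbers shared between groups. Of 672 recomputed differences of clock genes, 633 kept their sign, and 1 passed the threshold, Per1 in trained against control libraries without control replicate 1. Per1 and Ciart in both comparisons of the trained group, and Per2 in trained against naive libraries, kept their sign under the 17 alternatives run for Per1 and Per2 and the 16 run for Ciart. Ciart and Cry1 have no value under the filter of 5 FPKM. With the dentate gyrus markers as a covariate, naive against control values became -0.15 for Per1, -0.13 for Cry1, 0.19 for Dbp and 0.027 for Nr1d1. Trained against control became -0.0034 for Per2 and 0.066 for Dbp, trained against naive 0.024 for Per3 and -0.12 for Dbp, and both groups against control -0.027 for Cry1, -0.038 for Cry2, 0.13 for Dbp and 0.046 for Nr1d1. Array weights gave 0.013 for Cry2 in naive against control, 0.047 for Arntl and -0.025 for Nr1d1 in trained against control, and 0.0024 for Per2 and 0.010 for Arntl in both against control. Median-of-ratios scaling and quantile normalization gave -0.00019 and -0.0097 for Per1 in naive against control and 0.0042 and 0.0014 for Arntl in trained against control. None of these values passed, and the cause was not tested.

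Leaving out each library in turn, naive against control ranged from -0.050 to 0.037 for Cry2 and -0.10 to 0.14 for Per1. Trained against control ranged from -0.044 to 0.026 for Arntl, -0.0018 to 0.085 for Cry2, -0.39 to 0.035 for Dbp, -0.036 to 0.053 for Nr1d1 and -0.050 to 0.18 for Per2. Trained against naive ranged from -0.00054 to 0.064 for Arntl, and both groups against control from -0.060 to 0.0056 for Arntl, -0.026 to 0.061 for Cry2, -0.075 to 0.014 for Nr1d1 and -0.18 to 0.056 for Per2. Clock genes called in trained against control were 0 to 1.

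Over all genes, 0 were called in naive against control, 1 in trained against control, 1 in trained against naive and 0 in both against control. Without each library these counts were 0 to 15, 0 to 23, 0 to 22 and 0 to 36, with the highest without control replicate 1, except for trained against naive (naive replicate 1). Array weights gave 3 in naive against control and 3 in both against control, a filter of 5 FPKM 2 in naive against control, no filter 0 in trained against control, the covariate 0 in trained against control and 2 in trained against naive, and fits of only the groups compared 3 and 2 in those. Of the pairs of clock genes, 0 passed after adjustment under each alternative run. Of the relations of the clock genes with the dentate gyrus markers, 2 passed, and 2 to 3 without each library in turn, with no share over all genes computed.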
